A study of Mus musculus with 21 samples.

Results

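Preantral follicles (PREANTRAL) were set against multilayer secondary follicles (MLS), the stage that precedes them, to ask which genes change as the follicle passes from several layers of granulosa cells to its full size before a cavity opens. The 6 arrays of this comparison were chosen by their sample titles, 3 for PREANTRAL and 3 for MLS, out of 21 Illumina bead arrays that cover 7 stages of ovarian follicle development in female CD1 mice, an outbred strain. PREANTRAL follicles measured 200 to 300 µm on postnatal day 18 and MLS follicles 150 to 180 µm on postnatal day 16. The follicles of both stages were taken directly from ovaries with no agent given. PREANTRAL repeat 2 is an exception in part of its labels, which give day 20, 400 to 600 µm and gonadotropin treatment and are described below. Age and stage therefore cannot be told apart. Per the labels, 3 samples were collected from the pooled follicles of each stage. Whether a stage had 1 pool or several, and whether its samples came from separate animals, is not stated. A p-value thus reflects how far samples vary within a stage, estimated over all 21 arrays, and that variation may be technical.

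1 of the 3 PREANTRAL samples has labels that disagree. Its title, description and stage tag give PREANTRAL repeat 2, whereas its source name and day give antral follicles of 400 to 600 µm from day 20 ovaries of mice treated with pregnant mare serum gonadotropin (PMSG), as for the ANTRAL group. Its expression values lay with the other PREANTRAL arrays: its mean correlation across 10112 genes, which are not independent replicates, was 0.987 with PREANTRAL repeats 1 and 3, 0.967 with the MLS arrays and 0.943 with the ANTRAL arrays. On a scale that is 0 at the mean of the other PREANTRAL arrays and 1 at the mean of the ANTRAL arrays, its median position was 0.0222 over 1172 genes, against 0.029 for repeat 1 and 0.0341 for repeat 3. Star, the cholesterol carrier of steroid synthesis, was detected on 3 ANTRAL arrays and on no PREANTRAL or MLS array, repeat 2 included. For 2 of these ANTRAL arrays, detection was filled in from signal rank on other arrays. The library labelled PREANTRAL repeat 2 was kept in its group by title, and the counts over all genes are also given without it. Of 42 gene lists, 20 kept both their counts when it was left out, 14 moved by 1 call and 8 by 2 or more, and the median log2 fold change of a list moved by at most 0.15. For each list described whose counts moved, the counts without it follow.

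A growing follicle is a single oocyte enclosed by granulosa cells, with a basement membrane and a theca around them. Granulosa cells feed the oocyte through gap junctions and answer to follicle-stimulating hormone, which raises inhibin and activin subunits and later aromatase. The oocyte in turn secretes Gdf9 and Bmp15, growth factors of the TGF-beta family that act on granulosa cells, and builds the zona pellucida, its glycoprotein coat. As a follicle grows the granulosa cells multiply, so that the share of its RNA that comes from the oocyte can become smaller. Genes that define both cell types were detected on all 6 arrays, among them Gdf9 and Zp3 of the oocyte and Foxl2, Inha and Fshr of granulosa cells.

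PREANTRAL follicles differed from MLS follicles in 1558 of 10112 genes, or 15.4% (limma, Benjamini-Hochberg adjusted p under 0.05). The larger share was lower in PREANTRAL: 983 genes (9.72%) were lower and 575 (5.69%) were higher, so that 63.1% of the changed genes were lower. Median scaling in place of quantile normalisation moved that split to 79.0% lower, with 909 lower and 242 higher genes. A change of 2-fold or more was reached by 171 of the higher and 527 of the lower genes, and a change of 4-fold or more by 22 and 62. Without PREANTRAL repeat 2, 439 genes were higher and 865 lower. Over all genes tested the median log2 fold change was 0.02. The counts of each gene list below are to be read beside the shares of 5.69% higher and 9.72% lower. Levels are log2 intensities after background correction and normalisation, and log2 fold changes are PREANTRAL minus MLS, with their standard error.

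**Figure D1:**
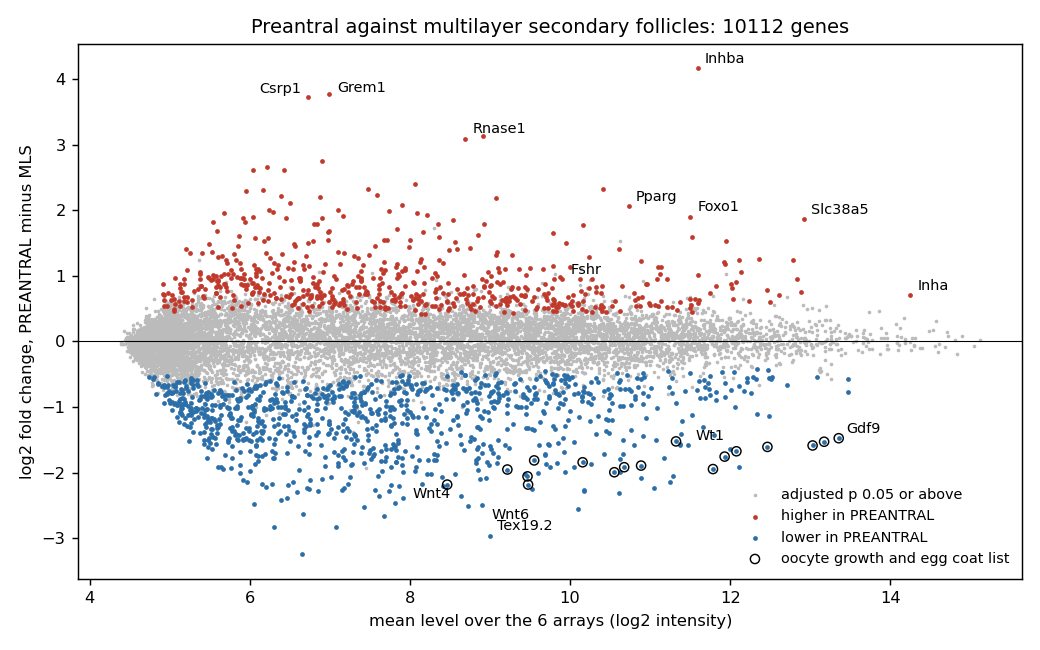
Log2 fold change of each gene (PREANTRAL minus MLS, vertical axis) against its mean level over the 6 arrays (log2 intensity, horizontal axis). Red points were higher and blue points lower in PREANTRAL at an adjusted p under 0.05, grey points did not pass, and open circles mark the 17 oocyte genes, which all lie between -2.18 and -1.48, while Inhba stands at 4.16.

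The genes of oocyte growth and of the egg coat were lower in PREANTRAL throughout. Of the list, 17 genes were tested, all were detected on all 6 arrays, and 17 of 17 were lower, against 9.72% of all genes. Their median log2 fold change was -1.84 and without PREANTRAL repeat 2 it was -1.92, again with 17 of 17 lower. The list's values lay close together, from -2.18 for Mos and Khdc3 to -1.48 for Gdf9. In bulk follicles, a smaller share of oocyte RNA in the total and less RNA of these genes per oocyte cannot be told apart. The summed linear level of the 17 genes was 26002 to 38142 on the PREANTRAL arrays and 90177 to 113822 on the MLS arrays, while the summed level of 20 granulosa cell markers was 111574 to 123652 on the PREANTRAL arrays and 79129 to 91234 on the MLS arrays. The part of this shift between cell types in the other results was not tested.

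The promoters of 3 of these oocyte genes are shown beside that of Inhba, the largest rise among genes detected on all 6 arrays, since the E-box (CANNTG, which reads the same on both strands) is the motif of the oocyte factor Figla, known in mouse to act on zona pellucida genes. Each is the stretch of 250 bases before the gene's start on its own strand, from RefSeq on GRCm38.p6, with E-boxes in capitals.
Zp3, chr5:135979855-135980104, plus strand: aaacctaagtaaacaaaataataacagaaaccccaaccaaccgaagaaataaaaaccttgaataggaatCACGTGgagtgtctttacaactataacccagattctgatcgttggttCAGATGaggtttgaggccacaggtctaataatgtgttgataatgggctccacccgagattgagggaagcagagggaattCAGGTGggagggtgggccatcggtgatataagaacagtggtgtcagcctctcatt
H1f8, chr6:115944681-115944930, plus strand: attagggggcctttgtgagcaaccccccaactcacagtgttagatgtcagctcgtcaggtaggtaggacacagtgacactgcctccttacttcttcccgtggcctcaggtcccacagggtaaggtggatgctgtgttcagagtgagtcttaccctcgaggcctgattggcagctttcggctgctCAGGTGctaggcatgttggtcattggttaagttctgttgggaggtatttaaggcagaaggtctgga
Khdc3, chr9:73102148-73102397, plus strand: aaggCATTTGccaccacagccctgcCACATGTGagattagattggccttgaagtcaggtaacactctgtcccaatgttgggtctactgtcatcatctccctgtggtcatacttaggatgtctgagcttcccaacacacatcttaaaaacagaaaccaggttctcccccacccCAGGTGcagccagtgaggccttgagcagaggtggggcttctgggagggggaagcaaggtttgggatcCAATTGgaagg
Inhba, chr13:16011601-16011850, plus strand: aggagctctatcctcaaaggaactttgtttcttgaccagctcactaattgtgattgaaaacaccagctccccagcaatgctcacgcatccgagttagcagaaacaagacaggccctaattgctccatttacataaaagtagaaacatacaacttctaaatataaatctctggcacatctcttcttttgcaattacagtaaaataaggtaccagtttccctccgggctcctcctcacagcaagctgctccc
The Zp3 window holds 3 E-boxes, at 181, 134 and 55 bases before the start. That of H1f8 holds 1, and that of Khdc3 holds 5, of which the pair at 225 and 223 bases before the start overlap. The Inhba window holds 0. Of the 10112 genes tested, 8180 had a promoter entry, and 63.9% of those promoters held an E-box in this window. The share was 63.1% over the genes higher in PREANTRAL, 73.8% over the genes lower, and 10 of the 10 oocyte genes with an entry. A match describes these letters and is no evidence of binding.

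Zp3 and Zp1, which encode proteins of the zona pellucida, were lower in PREANTRAL, and Zp2 was on the array but was not among the genes tested. Zp3 had levels of 10.05, 10.18 and 9.60 on the PREANTRAL arrays, against 11.49, 11.93 and 12.09 on the MLS arrays, a log2 fold change of -1.89 ± 0.21 (adjusted p = 1.94e-06, limma). Zp1 had 8.65, 8.61 and 8.06 in PREANTRAL, against 10.35, 10.41 and 10.73 in MLS, a change of -2.06 ± 0.22. For both coat proteins every PREANTRAL array lay below every MLS array, with a gap wider than the spread within either stage. Non-overlapping arrays with PREANTRAL below were found for 18% of all genes and for 17 of these 17.

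The secreted factors of the oocyte were lower as well. Gdf9 had levels of 12.81, 12.71 and 12.33 in PREANTRAL, against 13.94, 14.18 and 14.16 in MLS, which is 2.78-fold lower (-1.48 ± 0.21, adjusted p = 2.64e-05). Bmp15 had 11.08, 10.78 and 10.57 in PREANTRAL, against 12.41, 13.00 and 12.86 in MLS, which is 3.85-fold lower (-1.95 ± 0.26, adjusted p = 1.53e-05). Neither gene's arrays overlapped between the stages, and Gdf9 had the smallest fall of the list. Gja4, the connexin of the gap junctions at the oocyte surface, had 8.88, 8.70 and 8.19 in PREANTRAL, against 10.55, 10.39 and 10.86 in MLS, a change of -2.01 ± 0.21 (adjusted p = 1.11e-06).

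Chromatin proteins and stored maternal regulators of the egg showed the same direction. The oocyte linker histone H1f8 had 9.78, 9.53 and 9.35 in PREANTRAL, against 11.36, 11.54 and 11.75 in MLS (-1.99 ± 0.20). The nucleoplasmin gene Npm2, which remodels sperm chromatin after fertilisation, had 8.23, 8.18 and 8.32 in PREANTRAL, against 9.82, 10.23 and 10.53 in MLS (-1.95 ± 0.19). Mos, the kinase that holds eggs at the second meiotic metaphase, had 8.54, 8.6 and 8.02 in PREANTRAL, against 10.50, 10.11 and 11.08 in MLS (-2.18 ± 0.24). The adjusted p of the 3 genes lay between 7.51e-07 for Npm2 and 1.81e-06 for Mos. Khdc3, a member of the subcortical maternal complex, had 7.35, 7.81 and 6.96 in PREANTRAL, against 9.42, 9.34 and 9.90 in MLS (-2.18 ± 0.30, adjusted p = 2.64e-05).

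**Figure D2:**
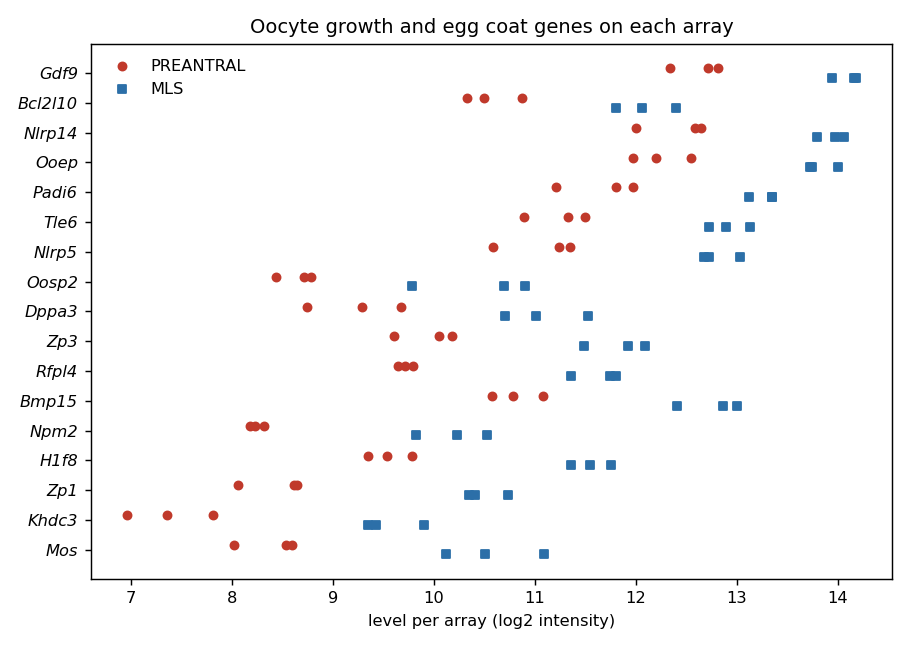
Level of each of the 17 oocyte growth and egg coat genes on each array (log2 intensity, horizontal axis), with 3 PREANTRAL arrays as red circles above 3 MLS arrays as blue squares for each gene. In every gene of the list all red circles lie left of all blue squares.

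Gene families of the oocyte that were picked after their values were seen, and that are given as a description, were mostly lower too. Of the Fbxw F-box genes, 7 of 9 were lower and 0 higher, with a median log2 fold change of -1.78. All 6 Tcl1 genes were lower (median -1.74), as were the 3 Obox homeobox genes (median -1.63), 5 of 6 Nlrp genes (median -1.68), 5 of 7 Pramel and oogenesin genes (median -1.85) and 4 of 5 Oas1 genes (median -1.85). The exception among the Oas1 genes was Oas1g, with 5.89, 5.95 and 5.43 in PREANTRAL, against 4.76, 5.56 and 5.46 in MLS, arrays that overlap (0.50 ± 0.21, adjusted p = 0.13). Members of a family can share sequence, and bead probes may not separate them.

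The 12 largest falls among genes detected on all 6 arrays included Wnt6, Wnt4 and Cldn11, which are described with their pathways. Tex19.2, a mouse germ cell gene, had 7.75, 7.81 and 6.99 in PREANTRAL, against 10.09, 10.44 and 10.91 in MLS, and was 7.78-fold lower (-2.96 ± 0.33, adjusted p = 1.96e-06). Pabpn1l, a poly(A)-binding protein of oocytes and early embryos, was 6.34-fold lower, with 6.39, 6.35 and 6.30 in PREANTRAL, against 8.66, 8.52 and 9.85 in MLS. Esrrb, an orphan nuclear receptor of pluripotent cells, was 5.78-fold lower, with 6.32, 6.20 and 5.97 in PREANTRAL, against 8.25, 8.84 and 8.99 in MLS. The arrays of the stages stood apart in each of these genes. The splicing regulator Esrp1 (-2.55 ± 0.27), the F-box genes Fbxw13 (-2.51 ± 0.30) and Fbxw19 (-2.35 ± 0.25), Vrtn (-2.47 ± 0.20), Ftdc1 (-2.31 ± 0.26) and Pramel26 (-2.28 ± 0.28) were the remaining ones, with adjusted p between 1.03e-07 for Vrtn and 7.02e-06 for Pramel26.

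The meiotic competence list holds genes that are not particular to the oocyte. Cdk1, Plk1 and Bub1b are also in the DNA replication and mitosis list, and Prkar2b is in the follicle-stimulating hormone list. In bulk follicles its values therefore cannot be read as those of the oocyte alone. Of 14 tested, 2 were higher and 2 lower, against 5.69% and 9.72% of all genes, with a median log2 fold change of 0.03. Cpeb1, which controls translation of stored messages, was lower, with 6.58, 7.08 and 5.74 in PREANTRAL, against 7.97, 7.76 and 8.04 in MLS (-1.46 ± 0.26, adjusted p = 3.42e-04). Ccnb3, a cyclin B, was lower too (-1.31 ± 0.21), and was detected on 1 PREANTRAL array and 3 MLS arrays. The higher ones, the phosphatase Cdc25c (0.52 ± 0.17, adjusted p = 0.0411) and the protein kinase A subunit Prkar2b (0.92 ± 0.31, adjusted p = 0.0451), lost their calls under median scaling and when single arrays were left out: 0 of the 14 were higher without PREANTRAL repeat 1 or 3 or MLS repeat 1 or 3, and 3 without PREANTRAL repeat 2.

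The largest rise among genes detected on all 6 arrays was that of Inhba, the beta-A subunit shared by activin A and inhibin A. It had levels of 13.80, 13.28 and 13.96 in PREANTRAL, against 9.42, 10.26 and 8.86 in MLS, which is 17.9-fold higher (4.16 ± 0.51, adjusted p = 6.57e-06, limma). The PREANTRAL arrays exceeded the highest MLS array by far more than the range within either stage. Inha, the alpha subunit that makes inhibin, had 14.68, 14.51 and 14.59 in PREANTRAL, against 13.83, 13.92 and 13.94 in MLS (0.70 ± 0.20, adjusted p = 0.0171), and lost its call without PREANTRAL repeat 1 or 3 or MLS repeat 1. Fst, follistatin, which binds activin, had 12.74, 12.63 and 12.82 in PREANTRAL, against 11.65, 11.79 and 11.03 in MLS (1.24 ± 0.28, adjusted p = 0.00364). Inhbb, the beta-B subunit, had 12.47, 12.05 and 12.86 in PREANTRAL, against 11.29, 11.99 and 11.002 in MLS, and did not pass (1.03 ± 0.36, adjusted p = 0.0604). It passed without PREANTRAL repeat 2 or MLS repeat 2, at log2 fold changes of 1.24 and 1.32 for Inhbb. At an unchanged 1.03, Inhbb also passed with only the 6 arrays fitted. The same held with the second repeats of the primordial PMD3 and two-layer secondary TLS stages left out.

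Of the 32 tested genes of inhibin, activin and BMP signalling, 8 were higher and 7 lower, with a median log2 fold change of 0.01. Median scaling left 4 higher and 7 lower, leaving out PREANTRAL repeat 1 gave 5 and 6, and leaving out PREANTRAL repeat 2 gave 7 and 8. Among the inhibitors, Grem1, gremlin, which binds BMP ligands, was 13.7-fold higher, with 8.89, 8.18 and 9.54 in PREANTRAL, against 4.70, 5.10 and 5.49 in MLS (3.77 ± 0.28, adjusted p = 6.06e-08). It was detected on 3 PREANTRAL arrays and 2 MLS arrays. Among the ligands, Bmp7 (-1.19 ± 0.26) and Tgfb2 (-0.83 ± 0.21) were lower beside Gdf9 and Bmp15, Tgfb2 without a call when MLS repeat 1 was left out. Among the receptors, the type II BMP receptor Bmpr2 had 7.76, 7.70 and 7.68 in PREANTRAL, against 7.16, 6.81 and 6.56 in MLS (0.87 ± 0.20, adjusted p = 0.0039). The receptor of anti-Müllerian hormone, Amhr2, had 12.22, 12.24 and 12.21 in PREANTRAL, against 12.89, 12.71 and 12.78 in MLS (-0.57 ± 0.14, adjusted p = 0.00819). Both receptors separated the stages on every array, and both lost the call under median scaling. Of the Smad proteins that carry the signal, Smad3 was lower (-0.78 ± 0.19, adjusted p = 0.00619), with no call without MLS repeat 3. Smad2 was higher (1.55 ± 0.47, adjusted p = 0.0293), with 7.79, 7.61 and 7.86 in PREANTRAL, against 4.43, 7.66 and 6.51 in MLS, arrays that overlap, and without MLS repeat 1 its log2 fold change was 0.67 with no call.

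Of 20 granulosa cell markers tested, 4 were higher (Inha, Inhba, Fst and Fshr) and 2 lower (Wt1 and Amhr2). All genes had shares of 5.69% higher and 9.72% lower, so the lower count lay near the share over all genes. The median log2 fold change of the markers was 0.37. Without PREANTRAL repeat 2, 5 were higher, and 3 were higher without PREANTRAL repeat 1, PREANTRAL repeat 3 or MLS repeat 1. Fshr, the receptor of follicle-stimulating hormone, had 10.22, 10.37 and 10.50 in PREANTRAL, against 9.42, 9.56 and 9.17 in MLS, which is 1.97-fold higher (0.98 ± 0.22, adjusted p = 0.00385). Wt1, a transcription factor of immature granulosa cells, had 10.60, 10.91 and 10.53 in PREANTRAL, against 12.29, 12.24 and 12.26 in MLS, which is 3.00-fold lower (-1.58 ± 0.22, adjusted p = 2.64e-05). Neither gene's arrays overlapped between stages. Amh, anti-Müllerian hormone, had 9.74, 9.44 and 9.0 in PREANTRAL, against 10.22, 10.05 and 10.25 in MLS. The arrays did not overlap, yet the difference of -0.78 ± 0.51 did not pass in the fit of 21 arrays (adjusted p = 0.358, limma). At an unchanged -0.78, Amh passed with only the 6 arrays fitted. It also passed with the second repeats of PMD3 and TLS left out. The cause was not tested.

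Other granulosa cell genes were measured without a call. Gja1, the connexin of the gap junctions between granulosa cells, had 14.71, 14.85 and 14.80 in PREANTRAL, against 14.66, 14.77 and 14.49 in MLS (0.15 ± 0.14, adjusted p = 0.558). Hsd17b1, which turns estrone into estradiol, had 13.98, 13.92 and 13.98 in PREANTRAL, against 13.56, 13.56 and 13.42 in MLS (0.44 ± 0.19, adjusted p = 0.128, limma). The arrays of Hsd17b1 did not overlap, as held for 17.3% of all genes with PREANTRAL higher. At an unchanged 0.44, Hsd17b1 passed with the second repeats of PMD3 and TLS left out. Kitl, the Kit ligand, overlapped widely (0.29 ± 0.27), as did the transcription factor Foxl2 (-0.06 ± 0.51) and the cyclin Ccnd2 (-0.32 ± 0.49). These tests did not exclude small differences.

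**Figure D3:**
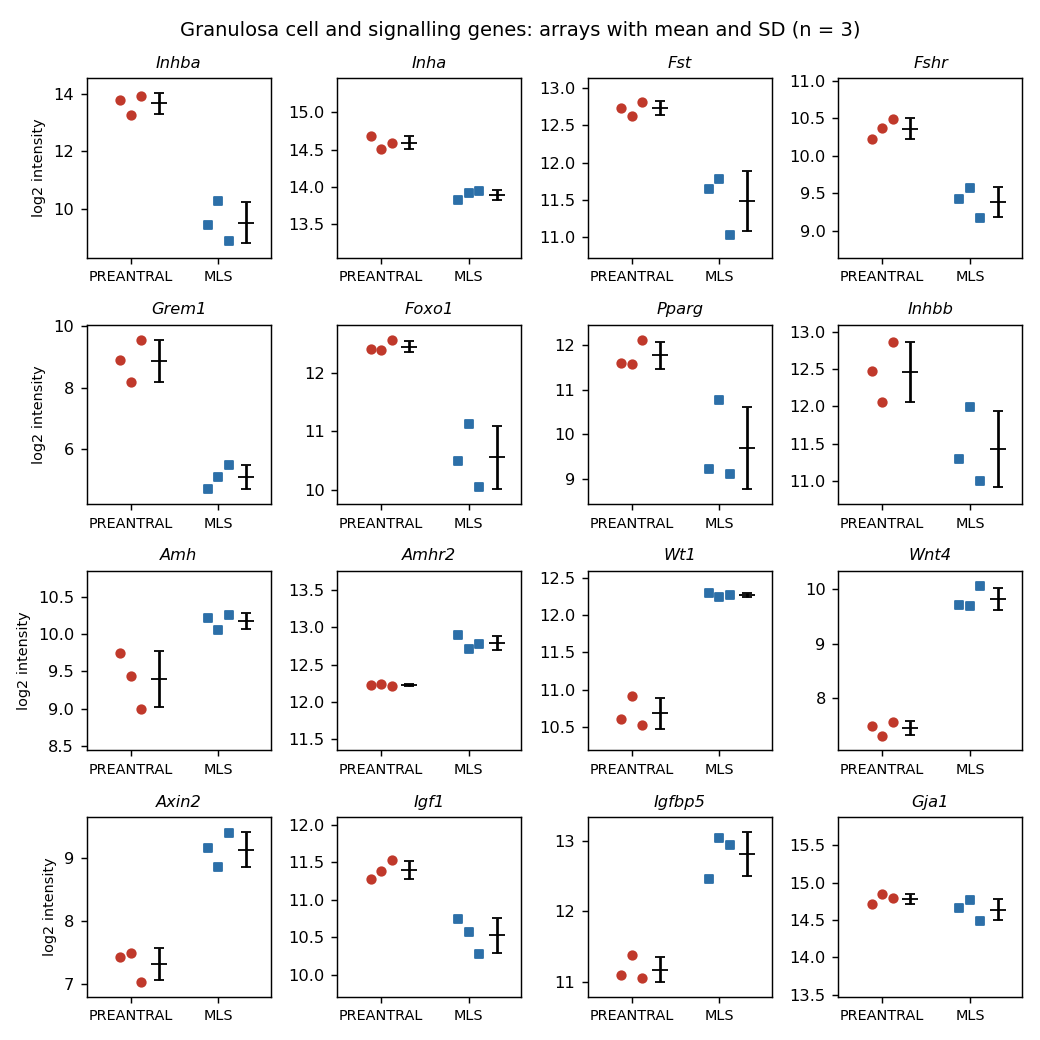
Levels of 16 granulosa cell and signalling genes on each array (log2 intensity, each panel with its own scale), PREANTRAL as red circles to the left of MLS as blue squares, with the mean and SD of the 3 arrays as a black bar beside them. Inhba, Grem1, Foxo1 and Fshr stand higher and Wt1, Wnt4, Axin2 and Igfbp5 lower in PREANTRAL, while the arrays of Gja1 overlap.

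Among 13 tested genes of the gonadotropin receptors and the response to follicle-stimulating hormone, 6 were higher and 1 lower (median 0.47). The higher ones numbered 3 without PREANTRAL repeat 3 and 4 without PREANTRAL repeat 1, MLS repeat 1 or MLS repeat 3. Beside Fshr, Inha, Inhba and Prkar2b they were Grb14, an adaptor of the insulin receptor, with 10.20, 10.78 and 10.86 in PREANTRAL, against 9.39, 8.80 and 8.70 in MLS (1.65 ± 0.25, adjusted p = 7.83e-05), and Mro, which had 7.67, 7.69 and 8.6 in PREANTRAL, against 6.88, 6.71 and 6.55 in MLS (1.27 ± 0.35, adjusted p = 0.0162). Mro lost its call without PREANTRAL repeat 3 or MLS repeat 3. The scaffold of protein kinase A, Akap12, was the lower one (-1.19 ± 0.20, adjusted p = 1.91e-04). Lhcgr and Cyp19a1 were not analysed here.

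Foxo1, the forkhead factor that is inactivated by PI3K signalling and abundant in granulosa cells of growing follicles, was the 1 gene of 12 in the Kit and PI3K list that changed. It had 12.40, 12.39 and 12.57 in PREANTRAL, against 10.49, 11.13 and 10.04 in MLS, which is 3.74-fold higher (1.90 ± 0.26, adjusted p = 2.64e-05). Pparg, a nuclear receptor of lipid metabolism found in granulosa cells, had 11.60, 11.57 and 12.12 in PREANTRAL, against 9.22, 10.76 and 9.11 in MLS, which is 4.19-fold higher (2.07 ± 0.33, adjusted p = 1.13e-04). MLS repeat 2 stood above the other MLS arrays in both genes and below every PREANTRAL array.

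Wnt genes were lower where they changed. Of 17 tested, 7 were lower and 0 higher (8 and 0 at an unadjusted p under 0.05, limma), with a median of -0.51, or -0.27 with undetected genes set at their bound. The lower ones numbered 4 without PREANTRAL repeat 3 or MLS repeat 1, 5 without PREANTRAL repeat 1, MLS repeat 2 or MLS repeat 3, and 6 without PREANTRAL repeat 2. Among the ligands, Wnt4 had 7.5, 7.32 and 7.56 in PREANTRAL, against 9.71, 9.69 and 10.05 in MLS, 5.14-fold lower (-2.36 ± 0.31, adjusted p = 1.45e-05). Wnt6 had 8.0, 8.14 and 6.84 in PREANTRAL, against 10.48, 9.43 and 10.55 in MLS, 5.63-fold lower (-2.49 ± 0.45, adjusted p = 4.60e-04). Both sets of arrays were separate between the stages. The R-spondin Rspo2, which strengthens Wnt signals and in mouse is made by oocytes, had 6.93, 6.87 and 6.6 in PREANTRAL, against 8.27, 9.27 and 8.63 in MLS (-1.92 ± 0.40, adjusted p = 0.00187). Axin2, a target and inhibitor of the pathway, had 7.42, 7.49 and 7.03 in PREANTRAL, against 9.15, 8.84 and 9.39 in MLS (-1.81 ± 0.25, adjusted p = 2.89e-05). The receptor Fzd2 was lower by -1.05 ± 0.34 (adjusted p = 0.0379) and lost its call when any array but PREANTRAL repeat 2 was left out.

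In the Notch list 2 of 11 genes were lower and 0 higher, against 9.72% and 5.69% of all genes. The ligand Jag1 was detected on 3 MLS arrays and no PREANTRAL array, at least 1.69-fold lower (adjusted p = 0.0036), where a bound sets the brighter stage against the lowest signal detected on each array of the other. The target Hes1 had 7.82, 7.96 and 7.64 in PREANTRAL, against 8.63, 8.16 and 8.90 in MLS (-0.76 ± 0.21, adjusted p = 0.0156), and lost its call without PREANTRAL repeat 3, MLS repeat 1 or MLS repeat 3. None of the 7 Hedgehog genes passed, nor any at an unadjusted p under 0.05 (limma).

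Of 12 genes of the insulin-like growth factor system 2 were higher and 2 lower (median 0.07), or 2 and 3 without PREANTRAL repeat 2. All genes had shares of 5.69% higher and 9.72% lower. Igf1, a growth factor of granulosa cells, had 11.28, 11.38 and 11.53 in PREANTRAL, against 10.74, 10.56 and 10.27 in MLS (0.87 ± 0.19, adjusted p = 0.00306). The binding protein Igfbp5 had 11.10, 11.37 and 11.05 in PREANTRAL, against 12.46, 13.03 and 12.94 in MLS, 3.11-fold lower (-1.64 ± 0.20, adjusted p = 7.35e-06). Both separated the stages on every array. Igfbp2 was higher (0.97 ± 0.23, adjusted p = 0.00582) and Igf2 lower (-0.58 ± 0.17, adjusted p = 0.0204), the last without a call when PREANTRAL repeat 3 or MLS repeat 3 was left out.

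Of the natriuretic peptide and meiotic arrest list, 8 genes were tested, and Npr2 and Gja4 changed. Npr2, the receptor whose cyclic GMP keeps the oocyte in arrest, had 10.59, 10.57 and 10.51 in PREANTRAL, against 9.88, 9.78 and 9.82 in MLS (0.73 ± 0.21, adjusted p = 0.0221). The arrays did not overlap, and the call was lost when any array but MLS repeat 1 was left out. Nppc, its ligand, had 5.45, 4.67 and 5.77 in PREANTRAL, against 4.64, 5.16 and 4.60 in MLS, and was detected on 2 PREANTRAL arrays and 1 MLS array (0.50 ± 0.24, adjusted p = 0.19). Without PREANTRAL repeat 2 Nppc passed at a log2 fold change of 0.81.

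Of 10 genes of steroid synthesis 1 was higher and 1 lower (median -0.07), against 5.69% and 9.72% of all genes. Cyp11a1, which makes the first cut of the cholesterol side chain, had 7.34, 7.91 and 7.16 in PREANTRAL, against 7.53, 7.56 and 7.34 in MLS (-0.01 ± 0.29). Cyp17a1, the androgen-making enzyme of theca cells, had 10.82, 11.27 and 10.63 in PREANTRAL, against 11.74, 12.04 and 10.01 in MLS (-0.35 ± 0.50). The arrays of both genes overlap, and neither passed, with adjusted p of 0.993 for Cyp11a1 and 0.723 for Cyp17a1. Hsd17b7 was lower (-0.71 ± 0.17, adjusted p = 0.00483). Scarb1, a receptor for high-density lipoprotein, was higher (0.89 ± 0.28, adjusted p = 0.0319) and lost its call under median scaling and without PREANTRAL repeat 1, PREANTRAL repeat 2, MLS repeat 1 or MLS repeat 3.

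The markers of cells around the follicle were lower in PREANTRAL where they changed, except for 1 erythroid gene. Of 11 theca and interstitial markers 2 were lower and 0 higher (4 and 0 at an unadjusted p under 0.05, limma), with a median of -0.35, and 4 were lower without PREANTRAL repeat 2 and under median scaling, against 1 without PREANTRAL repeat 1, MLS repeat 1 or MLS repeat 3. Their summed linear level was 5769 to 7614 on the PREANTRAL arrays and 7238 to 9585 on the MLS arrays, ranges that overlap, with Star undetected on all 6. Pdgfra, a receptor of theca precursors and fibroblasts, had 9.09, 9.41 and 8.34 in PREANTRAL, against 10.69, 10.31 and 10.56 in MLS (-1.58 ± 0.25, adjusted p = 1.19e-04). Insl3, a theca hormone, was lower (-1.08 ± 0.30, adjusted p = 0.0175) and lost its call without PREANTRAL repeat 1, MLS repeat 1 or MLS repeat 3. Of 16 stroma and smooth muscle markers 6 were lower and 0 higher (10 and 0 unadjusted), with a median of -0.78 and sums of 20291 to 26128 on the PREANTRAL arrays and 29098 to 34005 on the MLS arrays. That count rested on single arrays: 1 was lower without PREANTRAL repeat 3 or MLS repeat 1, 2 without MLS repeat 3, 3 without PREANTRAL repeat 1, 7 without PREANTRAL repeat 2 and 8 under median scaling.

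Within the stroma list, Thy1 had 7.54, 7.66 and 7.20 in PREANTRAL, against 9.04, 8.11 and 8.61 in MLS (-1.12 ± 0.26, adjusted p = 0.00496), and the proteoglycan Dcn, decorin, had 11.63, 11.79 and 11.12 in PREANTRAL, against 12.53, 12.26 and 12.29 in MLS (-0.84 ± 0.22, adjusted p = 0.0122). Both stood apart between the stages. The elastic fibre protein Mfap4 (-1.01 ± 0.30), the collagen chain Col1a2 (-0.85 ± 0.25) and the chemokine Cxcl12 (-0.81 ± 0.27) passed with adjusted p of 0.0252, 0.0238 and 0.0424. Each of these 3 lost its call when, among others, PREANTRAL repeat 3, MLS repeat 1 or MLS repeat 3 was left out, and Dcn when PREANTRAL repeat 3 or MLS repeat 1 was.

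Surface epithelium markers were lower in 4 of 8 genes and higher in 0 (5 and 0 at an unadjusted p under 0.05, limma), with a median of -0.74 and sums of 1003 to 1097 on the PREANTRAL arrays and 1751 to 1989 on the MLS arrays. Cdh1, E-cadherin, which oocytes also carry, had 6.54, 6.86 and 6.39 in PREANTRAL, against 7.93, 7.85 and 8.34 in MLS (-1.44 ± 0.24, adjusted p = 2.34e-04). The uroplakins Upk3b (-1.15 ± 0.25) and Upk1b (-0.87 ± 0.19) and the galectin Lgals7 (-0.93 ± 0.21) were lower as well. Of 13 endothelial markers only Emcn, endomucin, changed (-0.84 ± 0.19, adjusted p = 0.00421), with sums of 4008 to 5393 on the PREANTRAL arrays and 5859 to 7305 on the MLS arrays. Of 8 leukocyte markers 0 changed (1 lower at an unadjusted p under 0.05, limma), and their sums were 374 to 455 on the PREANTRAL arrays and 481 to 538 on the MLS arrays. These sums include 3 markers, C1qb, Lyz2 and Cd52, that were detected on no PREANTRAL array. The leukocyte median was -0.15, or -0.03 with undetected genes at their bound. Alas2, the first enzyme of haem synthesis in erythroid cells, was 3.44-fold higher, with 8.07, 7.39 and 7.73 in PREANTRAL, against 6.07, 6.15 and 5.62 in MLS (1.78 ± 0.24, adjusted p = 1.47e-05), the 1 call among 3 erythroid markers. The part of these marker lists in the other results was not tested.

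Of 25 genes of the follicle's extracellular matrix 10 were lower and 1 higher (median -0.33). The lower ones numbered 5 without MLS repeat 1 and 6 without PREANTRAL repeat 3 or MLS repeat 3. The matrix protease Mmp2 had 9.78, 10.16 and 9.42 in PREANTRAL, against 11.26, 10.91 and 11.37 in MLS (-1.39 ± 0.23, adjusted p = 1.72e-04), and its inhibitor Timp2 had 9.10, 9.48 and 9.09 in PREANTRAL, against 10.26, 10.03 and 10.21 in MLS (-0.94 ± 0.20, adjusted p = 0.00216). Both separated the stages. Of the basement membrane collagens, Col4a1 had 11.59, 11.67 and 10.89 in PREANTRAL, against 12.47, 12.00 and 12.34 in MLS (-0.89 ± 0.28, adjusted p = 0.0326), a call that was lost without PREANTRAL repeat 3, MLS repeat 1 or MLS repeat 3. Col4a3 was detected on 3 MLS arrays and no PREANTRAL array, at least 1.91-fold lower. Among all collagens, a family chosen after its values were seen, 14 of 27 were lower and 0 higher (median -0.81). The protease Adamts5, which cleaves versican, was the higher gene, with 7.07, 7.24 and 7.54 in PREANTRAL, against 5.82, 5.84 and 5.85 in MLS (1.45 ± 0.34, adjusted p = 0.00505), and its substrate Vcan was lower (-0.93 ± 0.15, adjusted p = 1.90e-04).

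Of 14 junction genes 4 were lower and 2 higher, with 1 higher under median scaling and without PREANTRAL repeat 1, PREANTRAL repeat 3 or MLS repeat 3. Cldn11, a claudin of tight junctions, had 6.66, 6.6 and 6.90 in PREANTRAL, against 9.10, 8.94 and 9.28 in MLS, 5.22-fold lower (-2.39 ± 0.28, adjusted p = 3.31e-06). The adhesion molecule Nectin2 had 7.95, 7.71 and 7.31 in PREANTRAL, against 8.71, 8.54 and 8.76 in MLS (-1.02 ± 0.18, adjusted p = 3.00e-04). Arrays of both were separate. Cldn12 was higher (1.10 ± 0.34, adjusted p = 0.0323), with 8.12, 8.01 and 8.45 in PREANTRAL, against 7.89, 7.31 and 6.06 in MLS, and without MLS repeat 3 its log2 fold change was 0.59 with no call. Cdh2, N-cadherin, was higher on the probe used here (0.98 ± 0.19), while its probes disagree in sign.

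Of 14 genes of glycolysis and lactate 5 were higher and 0 lower (8 and 0 at an unadjusted p under 0.05, limma), with a median of 0.55, or 0.44 with undetected genes at their bound; 3 were higher without PREANTRAL repeat 1 or 2 or MLS repeat 1 or 2. Pfkp, the platelet form of phosphofructokinase, had 9.17, 9.09 and 9.26 in PREANTRAL, against 7.33, 7.30 and 7.09 in MLS, 3.82-fold higher (1.93 ± 0.24, adjusted p = 7.60e-06). The aldolase Aldoa had 12.22, 12.11 and 12.43 in PREANTRAL, against 11.41, 11.30 and 11.49 in MLS (0.85 ± 0.17, adjusted p = 0.00151), and the phosphoglycerate mutase Pgam1 had 9.73, 9.57 and 9.77 in PREANTRAL, against 8.79, 8.86 and 8.95 in MLS (0.82 ± 0.16, adjusted p = 9.54e-04). These 3 genes were higher on every PREANTRAL array than on any MLS array. Pfkl (0.62 ± 0.20) lost its call when any single array was left out. Pgk1 was detected on 1 PREANTRAL array and no MLS array and was called at a level close to background, at least 1.10-fold higher. Pdk1, which shuts pyruvate dehydrogenase off, was higher (0.99 ± 0.24, adjusted p = 0.00554), with 8.23, 8.43 and 8.42 in PREANTRAL, against 7.43, 7.34 and 7.33 in MLS, and was 1 of 2 calls among 24 genes of pyruvate dehydrogenase and the TCA cycle. The other, the phosphatase Pdp1, was lower (-0.53 ± 0.17, adjusted p = 0.0372) and lost its call without PREANTRAL repeat 2 and under most other omissions of 1 array.

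In oxidative phosphorylation 1 of 30 genes was lower and 0 higher (2 higher and 1 lower at an unadjusted p under 0.05, limma). That gene was Cox7b, with 5.29, 5.20 and 6.0 in PREANTRAL, against 7.06, 6.48 and 6.56 in MLS (-1.21 ± 0.23, adjusted p = 9.63e-04). Among nucleotide genes, Prps2, which makes phosphoribosyl pyrophosphate, had 9.48, 9.77 and 9.12 in PREANTRAL, against 8.2, 8.12 and 7.80 in MLS, 2.67-fold higher (1.42 ± 0.25, adjusted p = 4.11e-04). Upp1, which splits uridine, had 8.18, 8.21 and 7.70 in PREANTRAL, against 9.51, 9.20 and 9.76 in MLS, 2.75-fold lower (-1.46 ± 0.25, adjusted p = 2.72e-04). Both stood apart from MLS on every array. Cad (0.85 ± 0.24) and Umps (0.66 ± 0.22), enzymes that build pyrimidines, were higher and lost their calls without PREANTRAL repeat 2, which left 0 higher of 13 pyrimidine genes. Umps lost its call without any other single array of the 6 as well, and Cad without PREANTRAL repeat 3 or MLS repeat 1. Both also lost theirs under median scaling.

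Cholesterol synthesis genes were higher in 4 of 14 and lower in 1 (median 0.38). Srebf2, the transcription factor of the pathway, had 8.22, 8.23 and 8.06 in PREANTRAL, against 7.52, 7.63 and 7.57 in MLS (0.60 ± 0.16, adjusted p = 0.016). Dhcr7, the last reductase, had 6.56, 7.21 and 7.55 in PREANTRAL, against 6.26, 6.21 and 5.94 in MLS (0.97 ± 0.27, adjusted p = 0.0175). The isomerase Ebp (0.61 ± 0.16) and the decarboxylase Mvd (0.64 ± 0.19) were the other higher genes. Without PREANTRAL repeat 2, 1 of the 14 was higher, since Srebf2, Dhcr7 and Mvd lost their calls; 1 was higher without PREANTRAL repeat 3, 2 without MLS repeat 3, and 0 under median scaling. Dhcr7 also lost its call without PREANTRAL repeat 3 or MLS repeat 3, Srebf2 without PREANTRAL repeat 1 or MLS repeat 1, and Ebp without PREANTRAL repeat 3.

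Of 20 amino acid transporters 3 were higher and 3 lower (median 0.10), or 4 and 2 without PREANTRAL repeat 2. All genes had shares of 5.69% higher and 9.72% lower. Slc38a5, a glutamine transporter, had 13.97, 13.89 and 13.71 in PREANTRAL, against 11.95, 12.33 and 11.70 in MLS, 3.63-fold higher (1.86 ± 0.22, adjusted p = 4.21e-06). Slc38a3, which in mouse granulosa cells supplies amino acids that the oocyte takes up poorly, had 8.57, 8.80 and 8.81 in PREANTRAL, against 6.94, 8.05 and 7.56 in MLS (1.21 ± 0.27, adjusted p = 0.00301). Slc7a11, the cystine transporter, had 6.11, 5.88 and 5.15 in PREANTRAL, against 8.0, 8.23 and 7.73 in MLS, 4.85-fold lower (-2.28 ± 0.28, adjusted p = 6.88e-06). All 3 separated the stages. Slc7a8 was higher (0.95 ± 0.22), and the glycine transporter Slc6a9 (-0.82 ± 0.17) and the glutamate transporter Slc1a3 (-0.86 ± 0.27) were lower, Slc1a3 with no call when PREANTRAL repeat 2 or 3 or MLS repeat 2 or 3 was left out.

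Glutathione and peroxide genes were higher in 3 of 24 and lower in 2, against 5.69% and 9.72% of all genes, so the lower count lay near the share over all genes. Leaving out PREANTRAL repeat 2 gave 4 higher. Mgst2, a membrane glutathione transferase, had 7.06, 7.20 and 7.54 in PREANTRAL, against 5.23, 5.25 and 5.43 in MLS, 3.91-fold higher (1.97 ± 0.29, adjusted p = 5.96e-05). Gpx3, the secreted glutathione peroxidase, had 9.34, 9.35 and 9.21 in PREANTRAL, against 7.99, 7.44 and 8.23 in MLS, 2.66-fold higher (1.41 ± 0.19, adjusted p = 1.97e-05), and Gpx7 was higher by 0.87 ± 0.15. Gstm2 (-0.77 ± 0.16) and Gstm1 (-0.84 ± 0.18) were lower, with probes that disagree in sign for Gstm1. Of 10 aquaporins and fluid transport genes 2 were higher and 1 lower, with 1 higher under median scaling or without any 1 of the 6 arrays. Aqp8 was 3.27-fold higher, with 8.49, 8.91 and 8.67 in PREANTRAL, against 6.72, 7.75 and 6.47 in MLS (1.71 ± 0.31, adjusted p = 5.13e-04). Aqp9 was 2.58-fold lower, with 5.43, 5.91 and 5.74 in PREANTRAL, against 6.75, 7.07 and 7.37 in MLS (-1.37 ± 0.21, adjusted p = 1.01e-04).

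Of 20 genes of DNA replication and mitosis 5 were higher and 0 lower (7 and 0 at an unadjusted p under 0.05, limma), with a median of 0.25. The higher ones numbered 1 without PREANTRAL repeat 3, MLS repeat 1 or MLS repeat 3, 2 without PREANTRAL repeat 1, 3 without PREANTRAL repeat 2 and 4 without MLS repeat 2. Mcm3, of the replicative helicase, had 9.12, 8.77 and 9.06 in PREANTRAL, against 7.89, 8.31 and 8.37 in MLS (0.80 ± 0.17, adjusted p = 0.00194), and Top2a, a topoisomerase, had 11.12, 11.20 and 11.21 in PREANTRAL, against 10.47, 10.71 and 10.35 in MLS (0.67 ± 0.19, adjusted p = 0.0175). Ccne2 (0.64 ± 0.19), Cdc6 (0.48 ± 0.16) and Mcm2 (0.46 ± 0.14) were the others. Each of these calls but that of Mcm3 was lost when 1 or more of the arrays was left out, and 0 of the 20 passed under median scaling, where their median was 0.15. Ccng1 was higher (0.79 ± 0.17, adjusted p = 0.00262), and the cell cycle inhibitor Cdkn1c was lower (-0.88 ± 0.25, adjusted p = 0.0179), a call that was lost without PREANTRAL repeat 3, MLS repeat 1 or MLS repeat 3.

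Of 19 apoptosis and atresia genes 3 were higher and 1 lower, against 5.69% and 9.72% of all genes. Under median scaling and without PREANTRAL repeat 1, PREANTRAL repeat 3 or MLS repeat 3, 1 was higher. Without PREANTRAL repeat 2 or MLS repeat 1, 2 were higher. Bcl2, which protects cells from death, had 5.52, 6.20 and 5.77 in PREANTRAL, against 6.86, 7.21 and 7.29 in MLS, 2.44-fold lower (-1.29 ± 0.22, adjusted p = 2.20e-04). Gadd45a, a stress-induced growth arrest gene, had 10.30, 10.46 and 10.34 in PREANTRAL, against 9.43, 9.67 and 9.16 in MLS (0.95 ± 0.23, adjusted p = 0.00619), and lost its call under median scaling. Gadd45b (1.46 ± 0.44) and Casp8 (0.53 ± 0.16) lost theirs when several single arrays were left out, and without MLS repeat 3 Gadd45b stood at 0.84. Of 21 stress and immediate early genes 0 passed (2 higher and 0 lower at an unadjusted p under 0.05, limma), and of 27 cytosolic ribosomal proteins 0 passed (2 higher and 1 lower unadjusted). Protein folding and secretion genes were higher in 3 of 16 and lower in 0 (11 and 0 unadjusted), with a median of 0.43, and 0 passed under median scaling. They were the disulfide isomerase Pdia4 (0.64 ± 0.14, adjusted p = 0.00285), Herpud1 (0.74 ± 0.21, adjusted p = 0.0172) and Xbp1 (0.60 ± 0.18, adjusted p = 0.0254). Herpud1 lost its call without PREANTRAL repeat 1 or MLS repeat 3, and Xbp1 when any array but PREANTRAL repeat 3 was left out. The list's higher ones numbered 1 without PREANTRAL repeat 1 or MLS repeat 3, 2 without PREANTRAL repeat 2 or MLS repeat 1, and 5 without MLS repeat 2.

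**Figure D4:**
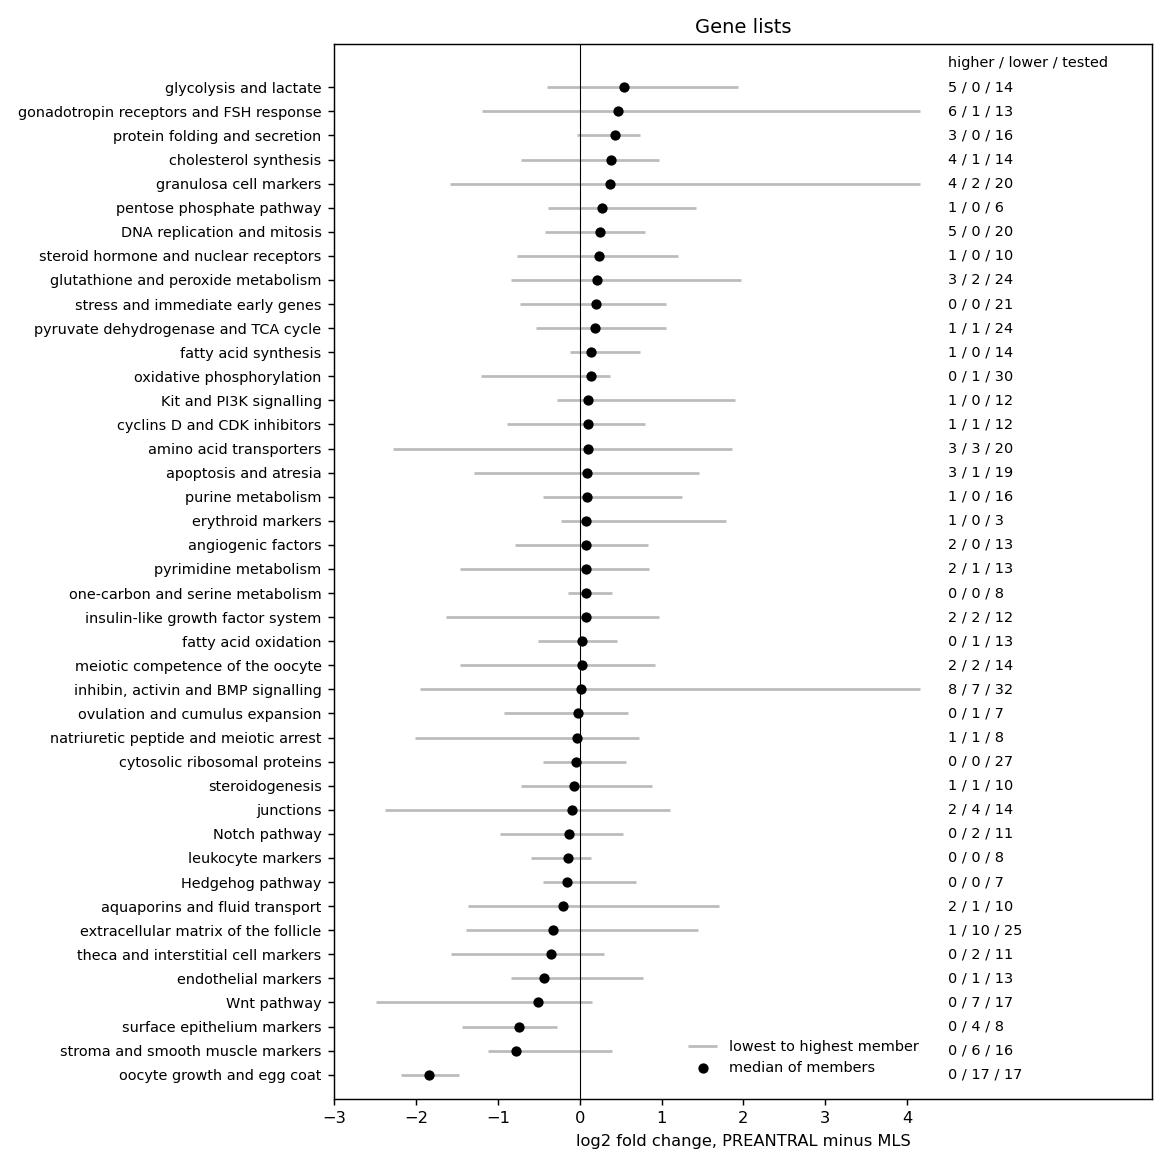
Log2 fold change (PREANTRAL minus MLS, horizontal axis) of 42 gene lists, with the median of the tested members as a black point, their lowest and highest values as a grey line, and the number higher, lower and tested at the right. The oocyte growth and egg coat list stands apart at -1.84, below stroma and smooth muscle markers at -0.78, and glycolysis and lactate lies highest at 0.55.

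Further rises of large size, among genes detected on all 6 arrays, fell outside the lists. Rnase1, a secreted ribonuclease, had 10.25, 10.12 and 10.35 in PREANTRAL, against 7.03, 7.75 and 6.67 in MLS, 8.52-fold higher (3.09 ± 0.40, adjusted p = 1.33e-05). The serine protease inhibitor Serpina5 had 9.29, 9.02 and 9.46 in PREANTRAL, against 7.23, 6.57 and 6.79 in MLS, 5.26-fold higher. The retinoic acid binding protein Crabp2 had 8.24, 8.64 and 9.05 in PREANTRAL, against 6.04, 6.49 and 6.43 in MLS, 5.0-fold higher. All 3 left a gap of more than 1 log2 unit between the stages. Dnajb13 (2.32 ± 0.23), the focal adhesion protein Tns4 (2.23 ± 0.21), the transcription factor Creb3l2 of the endoplasmic reticulum (2.19 ± 0.22), the elastase inhibitor Serpinb1a (2.07 ± 0.30), the calpain Capn6 (2.00 ± 0.21) and Rassf4 (1.99 ± 0.23) rose by similar amounts, with adjusted p between 6.53e-07 for Tns4 and 3.74e-05 for Serpinb1a.

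Some genes were detected at 1 stage and not at the other, which gives a bound in place of a fold change. Of the 10112 genes tested, 15 were detected on all 3 PREANTRAL arrays and no MLS array with a rise. Detection on all 3 MLS arrays and no PREANTRAL array with a fall was found for 127. Fewer probes were detected on the PREANTRAL arrays (12456 to 13000) than on the MLS arrays (13180 to 13907). The part of that difference in these counts was not tested. Csrp1, a LIM protein of the actin cytoskeleton, was at least 11.3-fold higher, with 8.93, 8.35 and 8.50 in PREANTRAL, against 5.11, 4.91 and 4.59 in MLS. The neuropeptide Npb was at least 5.46-fold, the class I histocompatibility gene H2-T23 at least 4.76-fold, the aldehyde dehydrogenase Aldh1a7 at least 4.00-fold, the DNA glycosylase Mpg at least 2.94-fold and Ct55 at least 2.53-fold higher. On the other side, Dppa4, a gene of pluripotent and germ cells, was at least 4.15-fold lower, with 5.14, 5.27 and 4.88 in PREANTRAL, against 6.95, 7.79 and 7.21 in MLS. Syt16 was at least 4.08-fold, Ifitm6 at least 3.42-fold, the secretogranin Scg3 at least 3.32-fold, Cabs1 at least 3.27-fold and the acyl-CoA thioesterase Acot3 at least 3.08-fold lower. Adjusted p for these 12 genes ran from 4.50e-08 for H2-T23 to 4.67e-05 for Mpg.

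Seen beside the neighbouring steps, the changes differed in whether they were a stretch of a longer course. The steps share arrays with this comparison, so their values are only set side by side. Two-layer secondary follicles (TLS) measured 100 to 130 µm on day 12, and ANTRAL follicles came from PMSG-treated mice on day 20. Of all genes, 1.77% were higher and 1.5% lower in MLS than in TLS, and 13% were higher and 14.7% lower in ANTRAL than in PREANTRAL. The TLS values include TLS repeat 2, and the step from TLS to MLS is not given without it. Leaving that array out together with PMD3 repeat 2 raised the changed genes of PREANTRAL against MLS from 1558 to 2130. Inhba averaged 11.11 in TLS, 9.51 in MLS, 13.68 in PREANTRAL and 14.19 in ANTRAL. The steps on either side did not pass for Inhba, with -1.60 (adjusted p = 0.0957) from TLS to MLS and 0.51 (adjusted p = 0.52) from PREANTRAL to ANTRAL. Grem1 averaged 4.80, 5.10, 8.87 and 9.74 over the same 4 stages, with detection on 1 TLS array and 2 MLS arrays, and its steps outside this comparison were 0.30 (adjusted p = 0.634) from TLS to MLS and 0.88 (adjusted p = 0.0228) from PREANTRAL to ANTRAL.

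Other genes peaked or dipped at the PREANTRAL stage. Rnase1 was lower in ANTRAL than in PREANTRAL by a log2 fold change of -4.24 (adjusted p = 7.22e-08), and Foxo1 by -1.91 (adjusted p = 1.21e-05). Wnt4, low in PREANTRAL, was higher again in ANTRAL by 2.53 (adjusted p = 2.65e-06), and Cldn11 by 1.42 (adjusted p = 5.08e-04). Gdf9, Mos and Wt1 were lower still in ANTRAL, by -1.46, -1.32 and -1.21. Csrp1 was detected on all 3 arrays of TLS, PREANTRAL and ANTRAL and on no MLS array, where its level is only a bound. The ANTRAL arrays include 2 with detection filled in from signal rank.

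**Figure D5:**
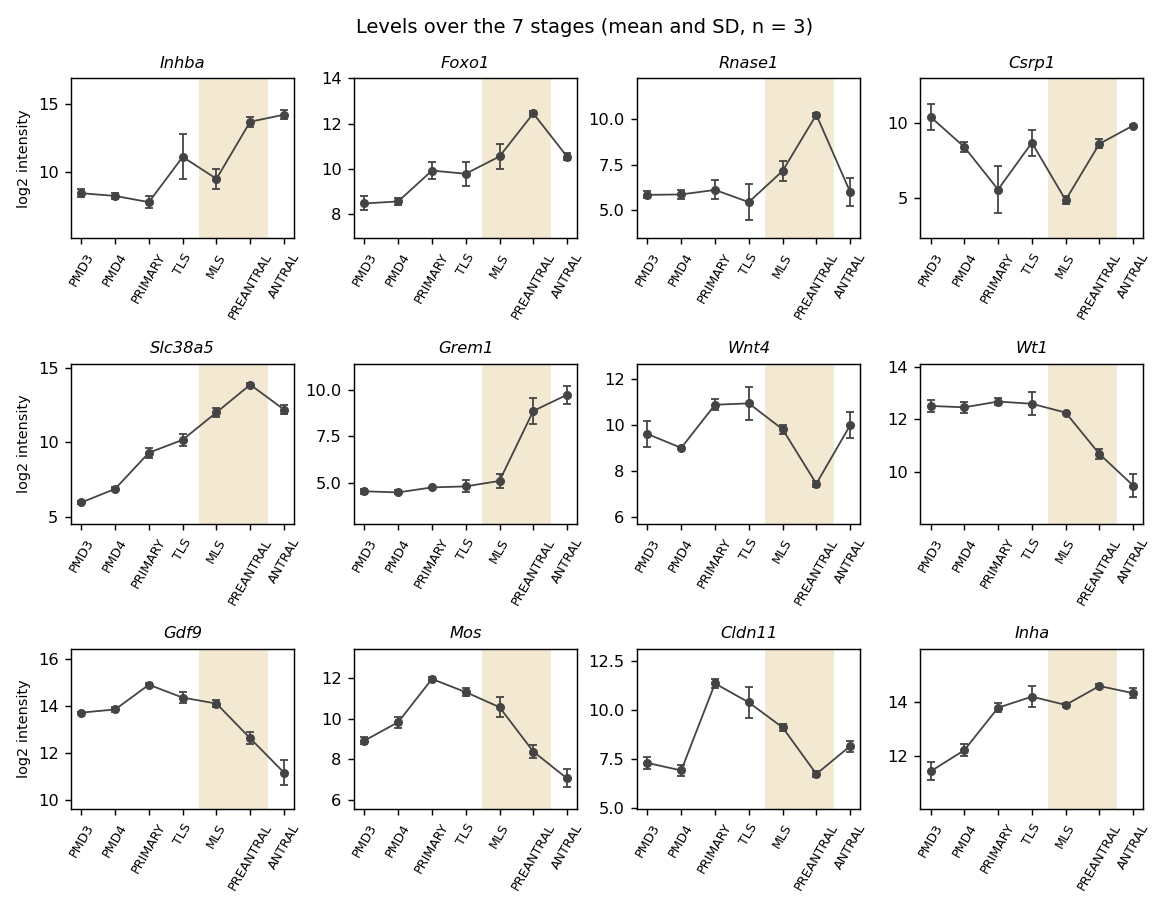
Mean level with SD (log2 intensity, 3 arrays a stage, each panel with its own scale) of 12 genes over the 7 stages in order of development, with MLS and PREANTRAL shaded. Inhba and Grem1 step up inside the shaded span, Gdf9, Mos and Wt1 step down and go on falling, Rnase1 and Foxo1 peak at PREANTRAL, and Wnt4 and Cldn11 are lowest there among the last 4 stages. Csrp1 was not detected on the MLS arrays.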

How the data were processed

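Signals and detection were deposited for 21 Illumina bead arrays. Per the file headers, the signal table gives average bead intensity per probe, neither background corrected nor normalised, beside a detection p-value per probe. The authors' own values, deposited in a second table, are on the log2 scale; the submitters' processing notes name limma, with no version, and the rest of their processing is not given in the sources used here. Samples were grouped by title.

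The function neqc (limma 3.58.1, R 4.3.3, offset 16) corrected the background of the intensities of 25697 probes and normalised them by quantiles. Among the antral arrays 2 share a column name, so their 2 detection columns were not used and detection was filled in from signal rank on the 19 others. Probes with a detection p under 0.05 on at least 3 arrays were kept, and each gene was represented by its brightest named probe, which left 10112 genes; 52 of the 407 changed genes with several probes had probes that disagree in sign. With limma, each stage got its own mean in 1 linear model of the 21 arrays, with variances moderated by eBayes. P-values were two-sided and Benjamini-Hochberg adjusted over all genes, with a threshold of 0.05. The fit was tested on simulated data. The number of arrays limits the precision.

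Named genes were the 12 largest changes each way detected on all 6 arrays, up to 6 each way detected at 1 stage only, up to 5 changed members each way of 42 lists, and a panel of follicle genes. The members and lists were chosen with earlier results of these data known. The labels give no batch, and repeat numbers were not used as pairs in the main fit. Same-numbered deviations correlated at 0.0372, -0.1841 and -0.169, which with 3 arrays a stage cannot exclude a shared batch. Alternatives covered normalisation, filter, probe choice, arrays fitted, a replicate block and each array left out. Lhcgr, Cyp19a1 and Mki67 were not analysed here.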

Additional observations from a re-analysis of the deposited data

How the results depend on the processing

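Across the alternatives the number of changed genes stayed within 1.5 times of 1558, from 1075 to 2130. Genes higher in PREANTRAL numbered 242 under median scaling and 868 when the second repeats of PMD3 and TLS were omitted, against 575. With 1 array left out in turn, 1075 to 1397 genes changed, 356 to 492 higher and 719 to 905 lower; the count higher was 356 without PREANTRAL repeat 3 and 367 without MLS repeat 3, and the arm that lost an array keeps 2 samples. The repeat number as a replicate block gave 1599 changed genes, 590 higher and 1009 lower, with 1480 of the 1558 shared. That fit also left out the 2 antral arrays that share a column name, so both changes act together in it. The correlation of PREANTRAL repeat 2 with its own stage exceeded that with ANTRAL by 0.0445, and by 0.285 over the 1000 genes with the highest variance. Of 158 named genes tested, 147 were called, and 100 of the 158 kept their side of the threshold in all alternatives. No gene changed direction in an alternative where it was called there or in the main fit. Changes of direction without a call in either fit were not counted. The cause of these shifts was not tested. Omitting the second repeats of PREANTRAL, PMD3 and TLS together, an alternative chosen after seeing the data, gave 692 higher and 1149 lower genes.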
